A study of Mus musculus with 3 samples.

Results

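The regions described here are stretches of mouse liver chromatin bound by the estrogen-related receptor ERRα that lie close to other such stretches. Coverage of the ERRα ChIP-seq library was averaged over 200-bp bins of chromosomes 1 to 19. A bin was called where ERRα coverage exceeded 2.0 and was at least 3 times that of the rabbit immunoglobulin G (IgG) control after 0.2 was added to both. Adjacent called bins formed a region, and regions separated by gaps of up to 12400 bp, in steps of 1 bin, were stitched into a group. Of 21679 ERRα regions, 5379 (24.8%) lay in 1378 groups of 3 or more regions and are the members. A further 4930 lay in pairs and 11370 stood alone. The members were chosen by their ERRα and IgG values, which are therefore given as descriptions with no test. Over all 11652767 covered bins, 0.346% passed the ERRα rule.

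The series consists of 3 libraries, 1 each for an mTOR ChIP, an ERRα ChIP and the IgG control, all from livers of C57Bl/6 males 2 to 3 months old. No allele, drug or diet is named in the labels of any library. For each ChIP, 8 immunoprecipitations were combined, with chromatin taken from 26 livers; the sources used here do not say what the IgG library pooled. No group has a replicate, so every comparison is one of libraries, and intervals cover counting error only. The tracks give coverage scaled to 10000000 tags from 62500000 (mTOR), 74200000 (ERRα) and 68800000 (IgG) tags. On this scale the threshold of 2.0 corresponds to about 20 ERRα tags in a bin. The liver is a mixture of cell types, and binding in more cells cannot be told apart from more binding per cell.

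ERRα is an orphan nuclear receptor that binds DNA and, together with coactivators of the PGC-1 family, regulates genes of mitochondrial respiration, fatty acid oxidation and the tricarboxylic acid cycle. In liver it acts beside other nuclear receptors that control glucose and lipid metabolism. mTOR is the kinase that rapamycin inhibits through FKBP12; it couples nutrient and growth factor signals to cell growth and has also been found on chromatin. Binding sites of transcription factors often lie near each other, at a promoter and at the enhancers around it. Regions are named by position on build mm9, because no gene annotation or sequence of that build was used here.

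Small groups made up most of the set. There were 773 groups of 3 regions (56.1%), 309 of 4 and 150 of 5, and the remaining groups held 6 to 15 regions. The 17 groups of 10 or more regions held 196 members. Groups spanned a median of 14.0 kb (quartiles 9.0 and 20.2 kb), from 1.20 to 73.2 kb. Their spans added up to 21.6 Mb, 0.928% of the covered bins, of which the called regions themselves took 10.01%. The number of groups rests on the thresholds: it was 244 at a minimum of 5-fold and 2740 when the genome-wide mean replaced IgG. Larger groups were longer, with a Spearman correlation of 0.618 between span and number over the 1378 groups, a description in which each added region also adds length by construction.

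**Figure D1:**
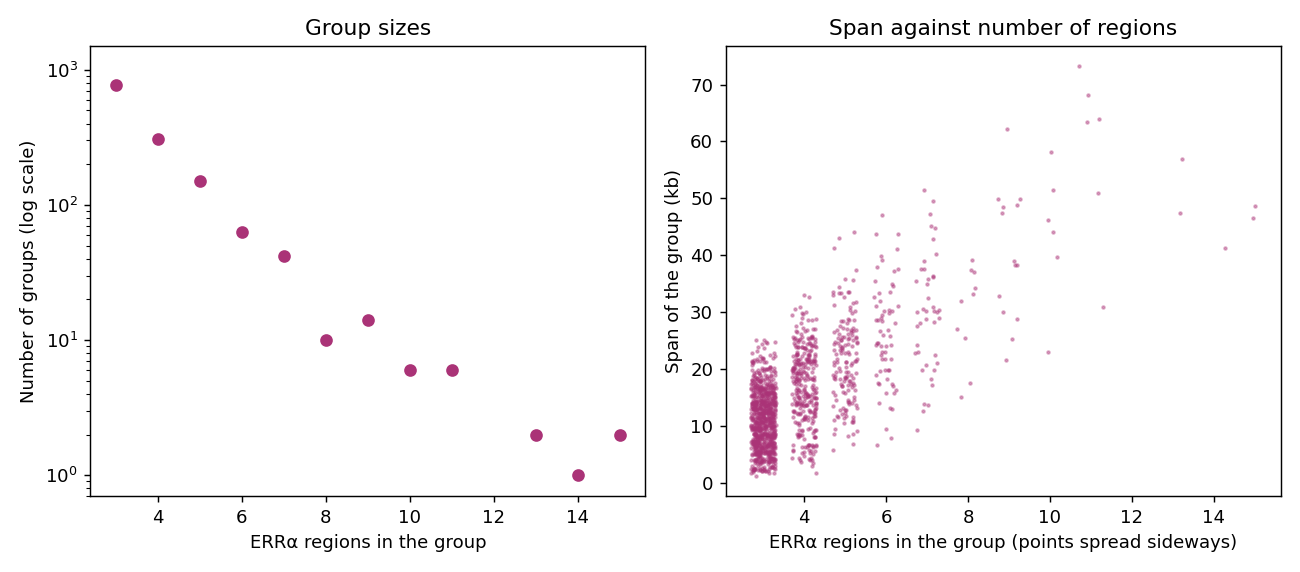
Left, number of groups (log scale) by the number of ERRα regions in them; right, span in kb of each of the 1378 groups, 1 point per group, against its number of regions. The number of groups falls from 773 with 3 regions to 2 with 15, and the longest span, 73.2 kb, belongs to a group of 11.

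Neighbouring members were separated by a median of 4200 bp over the 4001 gaps inside groups. Of these gaps, 1763 (44.1%) were 5200 to 12400 bp long and 1469 (36.7%) were 1200 to 5000 bp. There were 559 gaps (14.0%) of 400 to 1000 bp and 210 (5.25%) of a single 200-bp bin, which cannot be told apart from a single broad peak with a weak bin inside. These classes differ in width: per 200-bp step of length, gaps numbered 210 at a single bin, 140 at 400 to 1000 bp, 73.5 at 1200 to 5000 bp and 47.6 beyond, so the shortest were the most frequent. At the stitching limit, 31 gaps inside groups measured 12400 bp, and 59 pairs of neighbouring ERRα regions lay just outside it at 12600 bp. At the level limit, the weakest member had an ERRα coverage of 2.001, while the highest uncalled bin with the required fold had 2.00. Many members stood close to the limits: 901 (16.8%) were below a coverage of 2.5, and 1294 were below 3.5-fold over IgG.

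In its highest bin, the median member had an ERRα coverage of 3.66 (quartiles 2.74 and 5.50), against 0.647 (0.5 and 0.834) for IgG. Over all covered bins the medians were 0.518 and 0.560. The median fold of members over IgG was 4.43, with a 95th percentile of 13.1 and a highest value of 154. Regions outside the groups had a median ERRα coverage of 3.34 and a median fold of 4.196. Members at 10-fold or more numbered 501 (9.31%), against 6.69% of the regions outside groups. A width of a single bin was found in 41.7% of members and in 48.6% of the others. These values chose the regions, and the differences were not tested.

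The level of ERRα rose step by step with the size of the group. Its median was 3.30 in regions standing alone, 3.47 in pairs, 3.59 in groups of 3, 3.63 in groups of 4, 3.70 in groups of 5 to 9 and 4.19 in groups of 10 or more. The quartiles of neighbouring classes overlapped widely, for example 2.57 to 4.61 for regions alone and 2.96 to 6.78 for the largest groups. The IgG medians in the same order were 0.604, 0.624, 0.640, 0.647, 0.648 and 0.700. The mTOR medians, which the rule did not use, were 0.831, 0.900, 0.962, 0.976, 1.00 and 1.15. All 3 libraries were thus higher in the same order, by ratios from the first class to the last that were largest for mTOR and smallest for IgG.

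**Figure D2:**
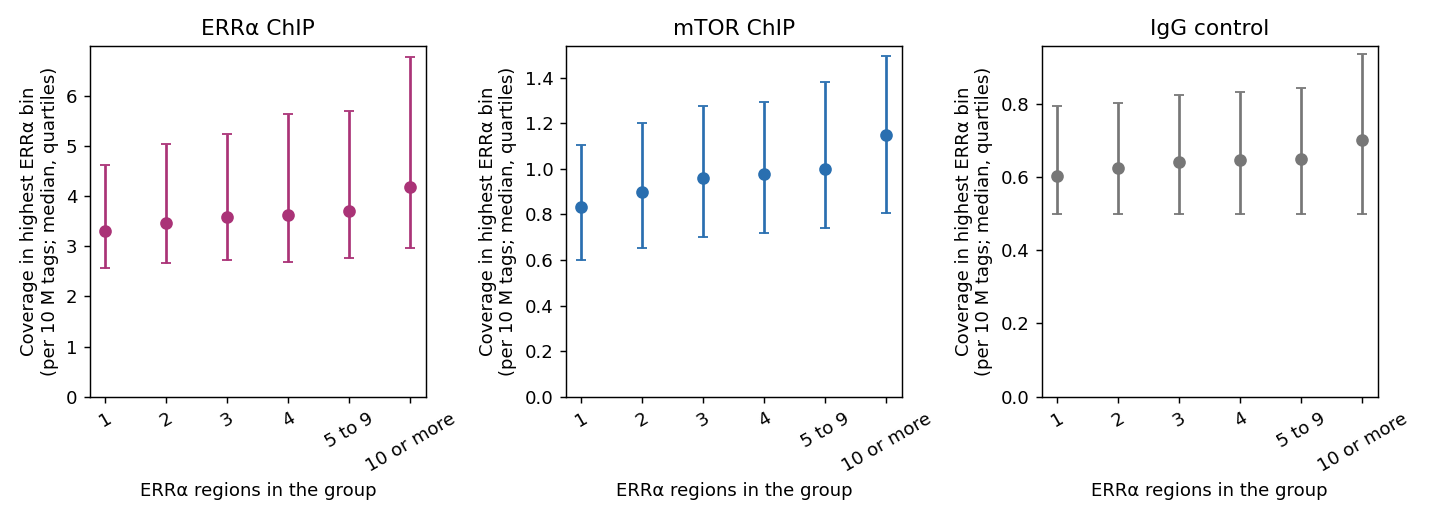
Coverage per 10000000 tags in the highest ERRα bin of all ERRα regions, by the number of regions in their group, for the ERRα, mTOR and IgG libraries; points are medians over regions and bars run between the quartiles. The medians rise from 3.30 to 4.19 for ERRα, from 0.831 to 1.15 for mTOR and from 0.604 to 0.700 for IgG, with wide overlap.

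The strongest region of a group exceeded the next by a median of 1.46-fold (quartiles 1.20 and 1.93), and in 738 groups (53.6%) by less than 1.5-fold; in 121 groups it led by more than 3-fold. The median ratio of the highest to the lowest member was 2.08 in groups of 3, 2.71 in groups of 4 and 3.54 in groups of 5 or more. In groups of 3 the strongest region held a median of 55.1% of the called ERRα coverage, and in groups of 5 or more 38.1%. It was the first or last of its group in 754 groups (54.7%), where 56.0% of such places are ends. A region at 10-fold or more was present in 416 groups (30.2%). By contrast, 248 groups (18.0%) had all their regions below 5-fold, and 48 had all at 5-fold or more.

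Of the 2 groups with the most regions, chr14:61549001-61595600 had the larger summed ERRα coverage, with 15 regions over 46.6 kb. Its regions were up to 1400 bp wide, and ERRα coverage in their highest bins ran from 2.35 to 13.7 with a median of 6.87. From the first to the last, the ERRα levels were 6.87, 7.13, 3.62, 10.3, 4.08, 9.92, 8.55, 2.35, 4.99, 13.7, 3.63, 4.23, 4.01, 10.96 and 13.2. The first 10 regions lay within chr14:61549001-61567400, and the last, chr14:61595001-61595600, followed after a gap of 12400 bp, which just met the limit. IgG was comparatively high here, at a median of 1.04 and up to 1.89, so that folds over IgG ran only from 3.04 to 10.01. mTOR coverage was 0.547 to 2.72, and summed over the called bins mTOR was 1.17 times IgG (exact 95% interval 1.03 to 1.33). At 13 of the 15 regions the interval of mTOR over IgG included 1. The exceptions were chr14:61571401-61571800, where mTOR was 2.72, ERRα 3.63 and IgG 0.700, and the last region, where they were 2.72, 13.2 and 1.14.

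The group chr17:45706401-45755000 also had 15 regions, over 48.6 kb. The ERRα levels from first to last were 4.97, 5.06, 4.82, 2.64, 2.27, 4.48, 12.2, 11.8, 7.40, 2.001, 3.55, 4.01, 3.30, 9.47 and 4.72. Its strongest part was the run chr17:45725401-45729000, in which 3 regions of 600 to 1000 bp followed each other with gaps of 600 and 400 bp. The strongest of these by level, chr17:45725401-45726000, had ERRα at 12.2, IgG at 0.956 and mTOR at 1.4. ERRα there was 10.7-fold over IgG (6.33 to 27.8), and mTOR was 1.38-fold (0.566 to 3.93), an interval that includes 1. mTOR regions, called by the same thresholds as ERRα regions, were present in this group but mostly beside the ERRα peaks. At chr17:45710001-45711000, 2200 bp from the nearest ERRα region, mTOR coverage was 5.78 (5.775), ERRα 0.827 and IgG 0.888. At chr17:45735401-45735600, 200 bp from the weakest ERRα member, the values were 4.63, 2.13 and 0.752. Of the 15 ERRα regions, 2 overlapped an mTOR region.

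The group chr2:164243201-164284400 held 14 regions over 41.2 kb, with ERRα levels from 2.24 to 7.74. The ERRα values were 4.10, 6.24 (6.235), 4.16, 6.10, 2.85, 2.62, 3.25, 4.12, 2.24, 7.58, 4.06, 7.74, 6.55 and 2.59. IgG was 0.4 to 1.15 and mTOR 0.300 to 1.87 in the same bins, and no ERRα region overlapped an mTOR region. The span held 3 mTOR regions. The strongest, chr2:164249201-164249600, 400 bp from the nearest ERRα region, had mTOR at 6.00, ERRα at 0.653 and IgG at 0.300, or 12.4-fold over IgG (5.91 to 91.7). The region chr2:164271201-164271600, with mTOR at 3.07 and ERRα at 0.733 (0.7325), directly adjoined the ERRα region chr2:164270601-164271200, where ERRα was 4.06 and mTOR 1.24. The third, chr2:164258401-164258600, lay 1600 bp from the nearest ERRα region, with mTOR at 2.28 and ERRα at 1.48.

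**Figure D3:**
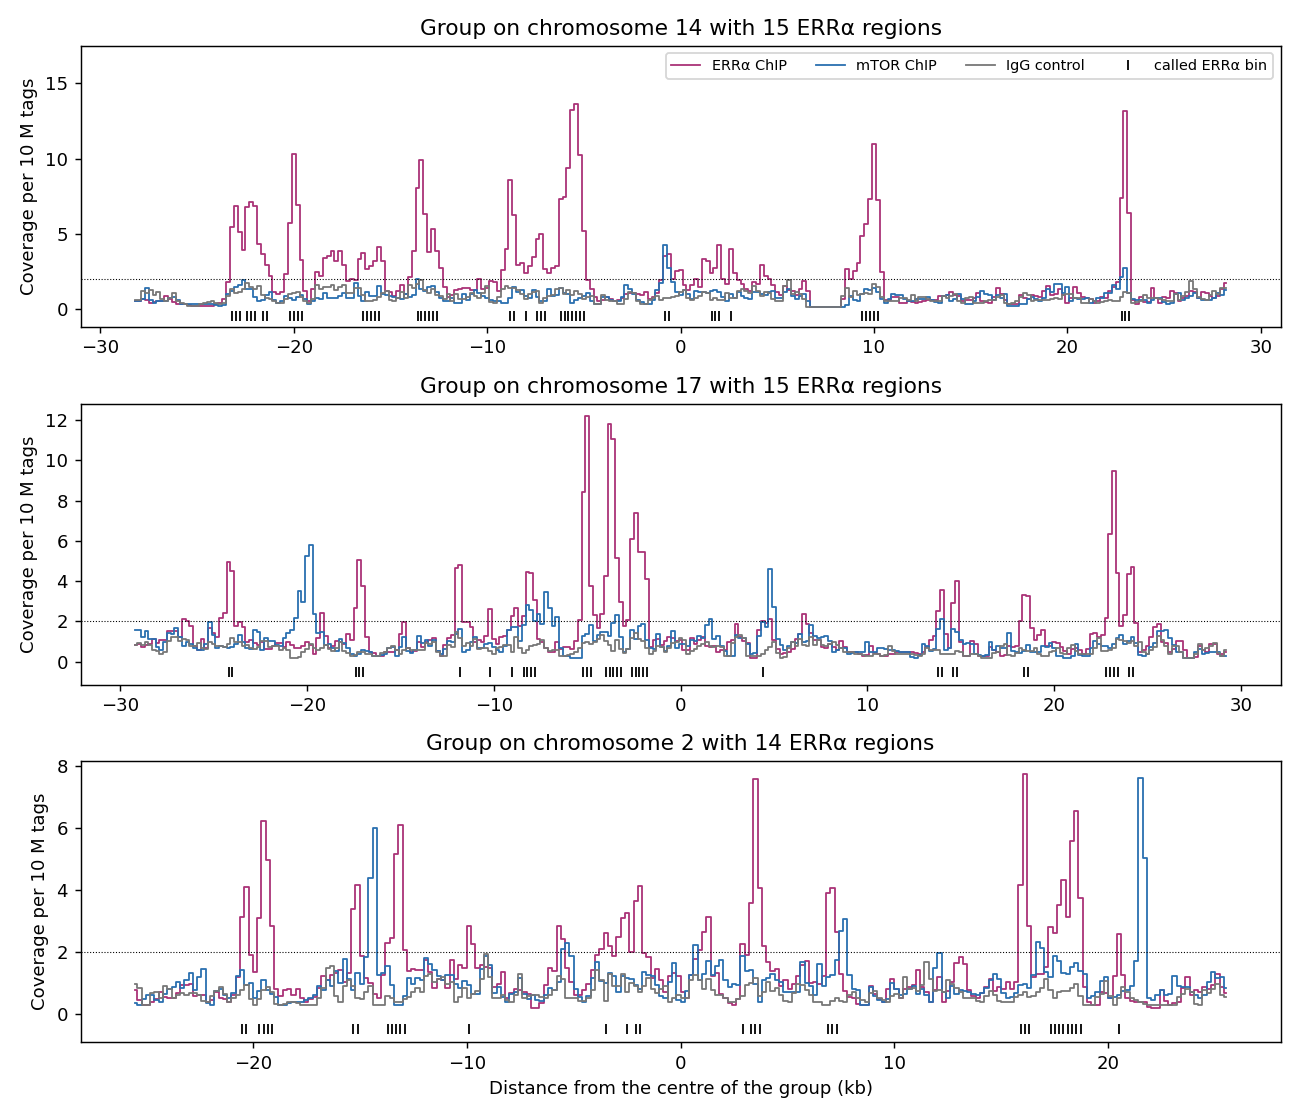
Coverage per 10000000 tags in 200-bp bins of the ERRα ChIP, the mTOR ChIP and the IgG control along the 3 groups with the most regions, against distance in kb from the centre of each group; ticks under the curves mark called ERRα bins and the dotted line the minimum coverage of 2.0. ERRα peaks reach 13.7, 12.2 and 7.74 in the groups of chromosomes 14, 17 and 2, while IgG stays at or below 1.89 in the highest bins of their ERRα regions. The mTOR peaks of 5.78 and 6.00 stand between ERRα peaks. A taller mTOR peak of 7.60 lies beyond the last ERRα region of the group on chromosome 2.

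The other 7 groups of the 10 with the most regions held 11 to 13. They were chr14:26286801-26343800 and chr2:153394001-153441400 with 13 regions each, and chr15:85535201-85586200, chr2:25923401-25996600, chr4:149365001-149433200, chr7:20389001-20452400 and chr5:125783201-125814000 with 11 each. Their median ERRα levels were 3.78 to 6.42, and the highest single level was 25.5 at chr2:25932401-25933200, where IgG was 0.521 and mTOR 1.43. Over the called bins of each of the 10 groups mTOR exceeded IgG, with ratios from 1.17 to 2.61 and no interval that included 1. The rule favours called bins with low IgG, which can raise these ratios. The highest ratio, 2.61 (2.11 to 3.24), was at chr5:125783201-125814000, where mTOR was 1.502 and IgG 0.576 over the called bins, and 1.04 and 0.772 in the uncalled bins between them. At chr14:61549001-61595600, with the lowest ratio, the uncalled bins had 0.721 and 0.735.

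The 5 longest groups were chr2:25923401-25996600 at 73.2 kb, chr4:149365001-149433200 at 68.2 kb, chr5:114969601-115033600 at 64.0 kb, chr7:20389001-20452400 at 63.4 kb and chr6:119323001-119385200 at 62.2 kb, with 9 to 11 regions each. The median group had 0.253 regions per kb. Among groups of 4 or more the densest was chr13:13553201-13554800, with 4 regions in 1.60 kb. Their ERRα levels lay between 2.01 and 5.54, IgG between 0.450 and 1.22, and mTOR between 0.5 and 1.13. The next, chr6:66963401-66966400, chr8:130879401-130882800, chr10:127772601-127776200 and chr7:31839201-31843200, put 4 regions each into 3.0 to 4.0 kb. Groups as short as these cannot be told apart from broad peaks with weak bins inside.

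The 5 groups with the highest ERRα levels held 3 to 7 regions. At chr1:184429001-184431800 a peak of 223.5 was accompanied by regions at 3.37 (3.365) and 2.02 within 2.80 kb. Called bins took 2200 bp of this span, so the weaker regions cannot be told apart from the edges of a single broad peak. This group rests on the thresholds, since the span held fewer than 3 regions in 6 of 9 alternative settings and only the peak at a minimum of 5-fold. IgG in the highest bin was 1.25 and mTOR 16.5, so that ERRα was 154-fold over IgG (104 to 374). All 3 regions overlapped mTOR regions, which was the case in 3 of the 1378 groups. At chr3:27993601-28013600 the peak of 149 stood beside regions at 6.67 and 2.55, with IgG at 1.59 and mTOR at 4.34 under the peak, and no member overlapped an mTOR region. The groups chr8:96972801-96995000 (4 regions), chr16:78296401-78315200 (5) and chr19:6982401-7014800 (7) had highest levels of 59.8, 59.8 and 58.0, while their median members were at 3.94, 4.68 and 2.93. In these 5 groups, mTOR over IgG at the strongest region was 11.5-fold (7.46 to 28.2), 2.54-fold (1.41 to 5.18), 3.74-fold (1.83 to 13.6), 4.66-fold (2.48 to 15.03) and 2.53-fold (1.01 to 8.63). The last interval nearly reached 1.

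mTOR coverage was below that of ERRα in most members, but its median was above that of all covered bins. In the highest ERRα bin the median mTOR coverage was 0.984 (quartiles 0.721 and 1.32), about 8 tags, against 36 ERRα and 6 IgG tags. The median mTOR coverage was 0.852 at ERRα regions outside the groups and 0.5265 over all covered bins (quartiles 0.4 and 0.752). The median mTOR fold over IgG was 1.36 (quartiles 1.05 and 1.80); it was 1.00 over all covered bins and 1.26 at ERRα regions outside the groups. Because the rule used IgG, which favours bins with low IgG, the mTOR coverage itself is the more independent measure. The mTOR interval lay above IgG in 460 members (8.55%), where the share was 4.66% for ERRα regions outside the groups and 0.441% for all covered bins. It lay below IgG in 2 members, and in 4917 it included equality, so that no difference was detectable at this depth. In 3320 members (61.7%) ERRα was at 3 or more times the mTOR level, against 65.8% of ERRα regions outside the groups. mTOR was the higher in 37 members and in 51 of the 16300 regions outside. The bins were chosen for high ERRα, which favours such ratios in both sets.

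An mTOR region was met by 216 members, or 4.02% (exact binomial 95% interval 3.51 to 4.58). The share was 1.97% (1.76 to 2.19) for ERRα regions outside the groups, made up of 2.76% in pairs and 1.63% in regions alone. Counted by 200-bp bin and not by region, 0.137% of all covered bins were called for mTOR. A wider region has more bins in which to meet an mTOR region, and a single bin made up 41.7% of members against 48.6% of the others. The ERRα and mTOR calls also used the same IgG values. With all regions called at a minimum of 5-fold the share of members was 1.92%, and 6.13% when the genome-wide mean replaced IgG in the fold. The intervals treat regions as independent draws, which neighbours in a group are not, and do not cover a repeat of the libraries. The share was 3.88% in groups of 3, 3.24% in groups of 4, 4.61% in groups of 5 to 9 and 5.61% (2.83 to 9.82) in groups of 10 or more, with overlapping intervals. The 216 members were spread over 186 groups (13.5%); 25 groups had more than 1 of them and none had more than 3.

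ERRα levels were higher in groups, so regions of like ERRα level were set side by side in 5 classes of equal size over all ERRα regions. The classes were not matched for the width of the regions or for the coverage around them. The median mTOR coverage beyond the groups was 0.745, against 0.671 around regions standing alone. In every class the median mTOR coverage was higher in members. In the lowest class, with ERRα up to 2.499, it was 0.818 in 901 members and 0.710 in 3435 other regions, at an IgG median of 0.5 in both. In the middle class, with ERRα of 3.07 to 3.87, it was 0.946 in 1016 members and 0.838 in 3319 others, at an IgG median of 0.7 in both. In the highest class, above 5.47, it was 1.19 in 1358 members and 1.07 in 2978 others, at IgG medians of 0.8 and 0.792. The difference was small beside the spread between regions, whose quartiles in the highest class were 0.865 and 1.60 in members and 0.794 and 1.44 in others. The share that met an mTOR region was 1.55% of members against 1.16% of others in the lowest class, with overlapping intervals (0.852 to 2.59 and 0.833 to 1.58). It was 8.03% (6.64 to 9.60) against 5.003% (4.25 to 5.85) in the highest. With 1 library of each kind, a repeat of the libraries could not be tested.

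**Figure D4:**
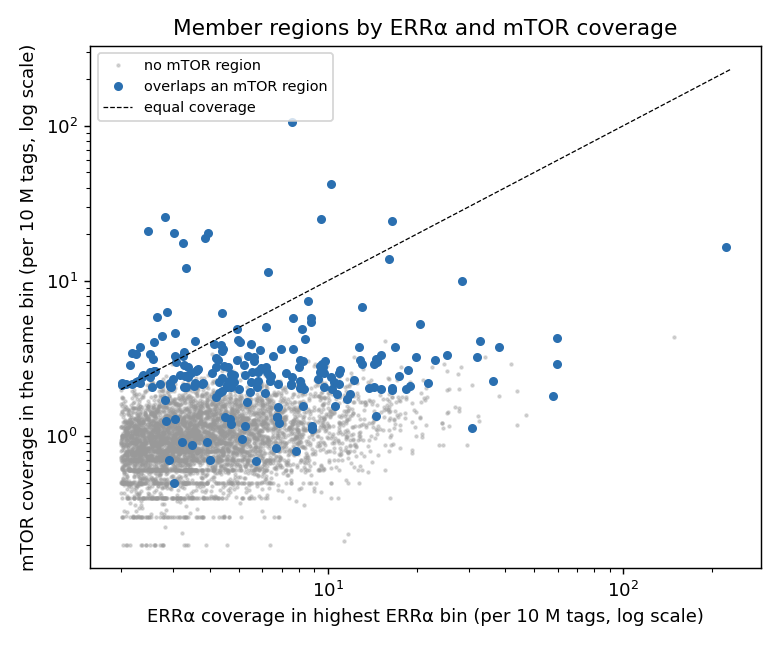
mTOR coverage against ERRα coverage per 10000000 tags in the highest ERRα bin of each of the 5379 members (both axes on a log scale); larger points mark the 216 members that overlap an mTOR region and the dashed line marks equal coverage. Nearly all points lie below the line, and 37 lie above it.

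Across members, the Spearman correlation of ERRα with mTOR coverage was 0.286, that of ERRα with IgG 0.482 and that of mTOR with IgG 0.279. These are descriptions over bins that share their sequence and mappability, and the correlation of ERRα with IgG is in part set by the rule, since a bin with more IgG needed more ERRα to be called. Over the medians of the 1378 groups the values were 0.266, 0.399 and 0.256.

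The members were also compared with the sequence around them in each library alone, without division by IgG. For each group, coverage was averaged over the called bins, over uncalled bins of its span at least 400 bp from a called bin, and over bins from the stitching limit to 25000 bp beyond both ends. Enough bins for all 3 were present in 1321 groups. The median ERRα coverage was 3.96 on the regions, 0.807 between them and 0.729 beyond the groups. mTOR stood at 1.00 on the ERRα regions, 0.787 between them and 0.743 beyond. IgG, which the rule used in choosing the called bins, was at 0.667, 0.676 and 0.666.

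In ratios taken within each group, mTOR on the ERRα regions was a median of 1.27 times its level between them (quartiles 1.07 and 1.53), and it was the higher in 1091 groups (82.6%). The same ratio for IgG was 0.984, and it was above 1 in 46.6% of groups. Because the rule favours called bins with low IgG, the IgG ratio is no independent control for that of mTOR. Between the regions ERRα was 1.11 times its level beyond the groups and above it in 71.5% of groups, mTOR was 1.05 times and above it in 63.4%, and IgG was 1.01 times and above it in 54.0%. Taken region by region, mTOR coverage was 1.28 times that beyond the group in members and 1.23 times in regions standing alone. The level beyond was itself higher around groups than around regions alone, at 0.745 against 0.671 for mTOR, 0.734 against 0.657 for ERRα and 0.667 against 0.641 for IgG.

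**Figure D5:**
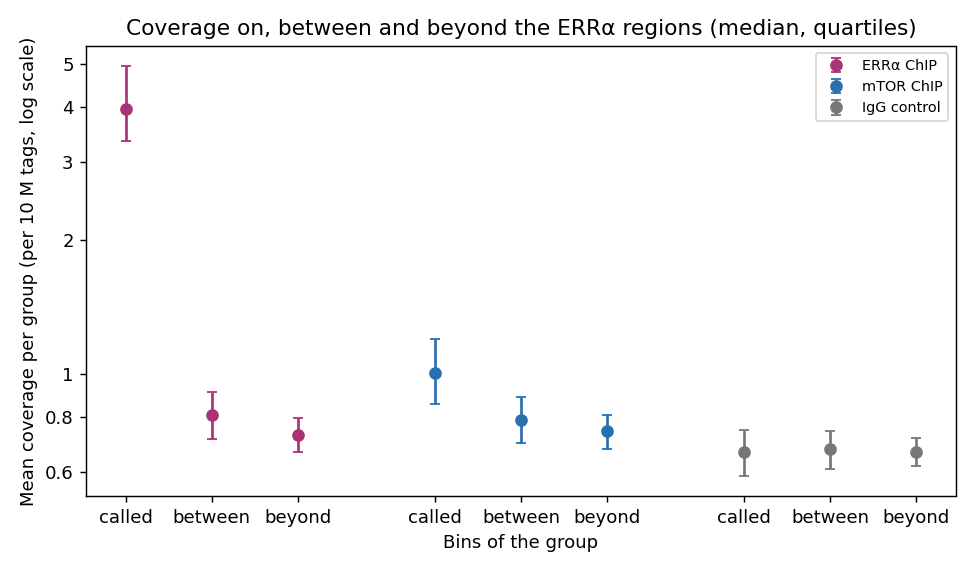
Mean coverage per 10000000 tags (log scale) of each library over the called ERRα bins, the uncalled bins between them and the bins from the stitching limit to 25000 bp beyond the group; points are medians over 1321 groups and bars run between the quartiles. mTOR falls from 1.00 on the regions to 0.743 beyond, and IgG stays between 0.666 and 0.676.

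Summed over the called bins of a group, mTOR was a median of 1.54 times IgG, and the interval lay above 1 in 697 of 1378 groups (50.6%) and below 1 in none. In the uncalled bins of the same groups the median was 1.15, the interval lay above 1 in 46.0% of 1321 groups and below 1 in 9. The uncalled bins covered more sequence, which narrows their intervals, so the shares are not to be compared as sizes of effect. The rule also favours called bins with low IgG, which can raise the ratio there, so the medians of 1.54 and 1.15 are descriptions.

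Called mTOR regions were also dense between the ERRα regions. Group spans contained 571 mTOR regions (6.31% of 9053). Of these, 219 shared a bin with an ERRα region and 352 did not. At least 400 bp away from any called ERRα bin, there were 294 mTOR regions in 16.5 Mb between members, or 17.9 per Mb. There were 380 in 31.0 Mb (30.96 Mb) from the stitching limit to 25000 bp beyond the groups, or 12.3 per Mb, and 3.38 per Mb in the rest of the autosomes. The ratio of the first density to the second was 1.45 (exact 95% interval 1.24 to 1.70, which treats mTOR regions as independent). Their median mTOR level was 3.04 between members, 3.29 beyond and 3.12 elsewhere, so that these regions differed in number more than in height.

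The largest mTOR folds on ERRα member bins occurred in 5 groups. At chr1:84829401-84836400, a group of 3 regions, mTOR coverage was 106 in a bin with ERRα at 7.60 and IgG at 0.515, or 148-fold over IgG (83.1 to 601), while the other members had mTOR at 0.867 and 1.04 (1.0445). At chr19:5832001-5849600, with 8 regions in 17.6 kb, mTOR was 21.1 in a bin with ERRα at 2.48 and IgG at 0.2, or 53.2-fold (26.5 to 808), and the median member was at 0.929. At chr5:125862601-125889800, with 5 regions, it was 42.2 with ERRα at 10.3 and IgG at 0.6, or 53.0-fold (29.4 to 177), and 3 members overlapped mTOR regions. At chr10:79701001-79732000, with 6 regions, it was 28.9 with ERRα at 3.13 and IgG at 0.4, or 48.5-fold (25.6 to 246). That bin is the edge of the region chr10:79711801-79712800, the strongest of its group. In the highest ERRα bin of that region, ERRα was 16.1 and mTOR 13.9. At chr10:79896601-79901400, with 3 regions, mTOR was 20.3 with ERRα at 3.02 and IgG at 0.300, or 41.1-fold (20.9 to 304). In each of the 5 groups the median member had mTOR at 0.929 to 1.92, where the quartiles over all groups were 0.809 and 1.20. The highest of these medians, 1.92, was at chr5:125862601-125889800, whose median member fold of 4.24 was the highest of the 1378 groups. These bins were chosen for their mTOR fold, and the intervals do not allow for that.

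The groups were unevenly spread over the chromosomes. Chromosome 11 had 141 groups, or 1.20 per Mb of covered sequence, and chromosome 19 had 63, or 1.099 per Mb. Chromosome 8 followed with 107 groups (0.875 per Mb) and chromosome 4 with 121 (0.826 per Mb). The median over the 19 autosomes was 0.594, and the lowest densities were 0.268 on chromosome 3, 0.316 on chromosome 13 and 0.347 on chromosome 14, although chromosome 14 holds a group of 15. The share of ERRα regions that were members was 32.2% on chromosome 8, 30.6% on chromosome 19 and 30.5% on chromosome 11, against 15.3% on chromosome 13. Group density had a Spearman correlation of 0.954 with the density of all ERRα regions and of 0.837 with the number of protein-coding genes per Mb over the 19 autosomes. Both are descriptions, the first fixed in part by the stitching, and the gene numbers per chromosome were taken from RefSeq's annotation of GRCm38.p6.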

How the data were processed

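Single 50-bp reads were sequenced, per the labels' protocols. Per the file headers, the authors deposited signal tracks in which tag coverage was scaled to 10000000 tags. The tools named in the submitters' processing notes, without their roles, are BWA 0.5.9 and MACS 1.4.1, and the build is mm9. How duplicate tags were treated and which program wrote the tracks is not given in the sources here. Coverage summed to 149 to 150 bp per tag (149.3 to 149.9).

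Coverage was averaged over 200-bp bins, uncovered positions counting as 0. A fold is (coverage + 0.2)/(IgG + 0.2); region values are those of the highest ERRα bin, and mTOR regions used the same thresholds as ERRα regions. Ratio intervals are exact (Clopper-Pearson, 95%) on tags approximated from coverage. They are intervals of the plain ratio, without the 0.2, also where they stand beside a fold. The 0.2 draws a fold toward 1, most strongly where IgG is low. Calling and stitching were tested on simulated data. With 1 library per group there is no p-value.

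Members, lists and rules were chosen with earlier results of these data known. Groups named were the 10 with most regions (ties by summed ERRα), the 5 longest, the 5 with the highest ERRα bin, the 5 with the highest mTOR fold in a member bin and the 5 densest of 4 or more regions. Planned gene lists, tissue markers and sequences need mm9 and were not used. Python 3.11.15, NumPy 2.4.6, pandas 2.3.3, SciPy 1.17.1 and Matplotlib 3.10.9 were used.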

Additional observations from a re-analysis of the deposited data

How the results depend on the processing

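The counts and spans follow the thresholds, while the comparisons of members with other ERRα regions kept their direction. With the alternatives in the order pseudocount of 0.4, minimum coverage of 3.0, minimum fold of 5, largest gap of 5 kb, largest gap of 25 kb, 100-bp bins, genome-wide mean in place of IgG, and groups of 4 or more, the number of groups was 914, 632, 244, 585, 2068, 2519, 2740 and 605. In the same order the number of members was 3438, 2323, 834, 2050, 9562, 10471, 11621 and 3060, and the median span was 13.5, 13.5, 12.8, 6.00, 29.0, 13.0, 14.8 and 20.6 kb. Joining regions across 200 bp left 1295 groups with 5006 members and a span of 14.6 kb. The median mTOR fold of members was 1.34, 1.53, 1.4, 1.33, 1.20 and 1.39 with the pseudocount of 0.4, the fold of 5, the gaps of 5 and 25 kb, the genome-wide mean and groups of 4 or more. The share of members that met an mTOR region was 3.20%, 2.37%, 1.92%, 5.22%, 3.45% and 6.13% with the pseudocount of 0.4, the coverage of 3.0, the fold of 5, the gaps of 5 and 25 kb and the genome-wide mean.

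That share was 1.83 to 2.38 times the share outside the groups in all 9 alternatives, and at the fold of 5 the range allowed by both intervals, 0.893 to 4.04, included 1. The median mTOR coverage of members was 1.14 to 1.16 times that of the other regions in 8 of them and 1.20 with 100-bp bins. The ratio of mTOR region densities between members and beyond the groups was 1.76 with the coverage of 3.0, 1.72 with the fold of 5, where its interval of 0.985 to 2.95 included 1, and 1.99 with the gap of 5 kb; it was 1.43 to 1.69 in the other 6. Of the 27 named groups, 12 still held regions of a group at the fold of 5, against 22 to 27 under the other alternatives. The span chr1:184429001-184431800 held none in 7 of 9 alternatives, and chr3:27993601-28013600 and chr10:79896601-79901400 none in 4 each. Depth limits single members: at about 8 mTOR and 6 IgG tags per bin, most intervals include equality. No paired analysis was possible because each group has 1 library.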

Other observations

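Chromosome X, which the rule leaves out, held 135 ERRα regions by the same thresholds, and 12 of them formed 4 groups of 3 or more. This was 0.0277 groups per Mb of covered sequence, below the lowest autosomal density of 0.268 on chromosome 3. Median coverage over the covered bins of chromosome X, present as a single copy in these male livers, was 0.2 for ERRα and 0.207 for IgG, against 0.518 and 0.560 on the autosomes. The minimum coverage was not adjusted for this, and its part in the count was not tested.

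The tracks are given in intervals whose resolution varies. At the centre of the highest bin of a member the median ERRα interval was 56.0 bp long, and 0% exceeded 200 bp, so the bins were not coarser than the deposited values there.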
